A study of Mus musculus with 12 samples.

Results

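Epiregulin (Ereg), amphiregulin (Areg), heparin-binding EGF-like growth factor (Hbegf), betacellulin (Btc) and transforming growth factor alpha (Tgfa) are growth factors of the EGF family, and Egfr, Erbb2, Erbb3 and Erbb4 encode the ErbB receptors through which such factors act. The family was followed in embryonic mouse gonads lacking Cbx2. Every probe set that the platform annotation assigned to a single one of these 9 genes was taken, which gave 19 of 45037 probe sets. They covered 8 of the 9 genes, with 8 probe sets for ligands and 11 for receptors, and Areg was not analysed here because no probe set was listed for it. The annotation named 18193 genes in all. The family was selected on the KO minus WT values of Ereg, which stood among the largest decreases of the knockout, so each Ereg comparison that involves KO arrays is a description with no test. The other members were tested, and Ereg was tested only between the sexes in WT gonads.

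The arrays measured RNA of gonads at E11.5, around the onset of sex determination, in 4 groups of 3 arrays: Cbx2 knockout (KO) XY, Cbx2 KO XX, wild-type (WT) XY and WT XX. Embryos came from matings of mice heterozygous for the Cbx2 KO, and their age was checked by counting tail somites. Cbx2 is a chromobox subunit of Polycomb repressive complexes, which hold target genes in a silent chromatin state. Gonadal cells were cut by laser from 30 µm frozen sections, guided by tissue form and by staining for GATA4, a transcription factor of gonadal somatic cells. Each array held material pooled from 2 or 3 embryos and amplified from 15 ng of RNA, so p-values measure the spread between pools. Strain, Cbx2 allele and deleted part are not given in the sources used.

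Array identity was checked first. Xist was high on all XX arrays and the Y-linked gene Eif2s3y on all XY arrays. The Cbx2 probe set 1434116_at lay between 9.27 and 9.58 in KO arrays and between 8.46 and 9.04 in WT arrays (log2 signal), so it was higher in KO arrays and gave no check of the genotype. The source name of the WT samples carries the name of the KO XX group, and genotype was taken from the titles and the genotype field. Replicate 1 of WT XX stood apart: its mean correlation with the other 2 WT XX arrays was 0.988, against 0.9945 with the WT XY arrays. The gonadal markers Wt1, Emx2 and Lhx9 (1419324_at) read between 10.69 and 12.84 on all arrays. Not all gonadal markers kept their level. Lhx9 1419324_at differed between KO and WT by -1.21 in XY and -0.96 in XX, and Nr5a1 1418315_at by -2.35 and -2.04. Gata4 itself averaged 7.52 ± 0.17 in KO XY against 9.02 ± 0.10 in WT XY, and 7.50 ± 0.20 in KO XX against 8.91 ± 0.35 in WT XX (log2 signal, SD, n = 3 each). Values are log2 signals after robust multi-array averaging (RMA), which gives no detection call. As a guide to the level without transcript, probe sets of the Y-linked genes Eif2s3y, Kdm5d and Uty read between 2.50 and 4.82 in XX arrays. In XY arrays Xist read 3.33 to 4.02 on 1427262_at, 3.83 to 4.41 on 1427263_at and 5.81 to 6.09 on 1436936_s_at. The level thus differs between probe sets, and readings up to 6.09 may also lack transcript.

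EGF-family ligands are made as transmembrane precursors and released by metalloproteases of the ADAM family. They bind ErbB receptor tyrosine kinases, which pair with one another: Erbb2 binds no known ligand, the kinase of Erbb3 is weak, and signal is passed on chiefly to the RAS-ERK and PI3K-AKT cascades. In the adult mouse ovary, epiregulin, amphiregulin and betacellulin relay the luteinizing hormone signal from granulosa cells to the cumulus cells around the oocyte.

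Tgfa and Egfr are the members with the clearest tested differences, one lower and the other higher in KO gonads, and the sequences before their transcription starts are shown for that reason. Both windows are the 250 bases before the start in RefSeq GRCm38.p6, Tgfa at chr6:86194972-86195221 on the plus strand and Egfr at chr11:16751953-16752202 on the plus strand. RefSeq promoter windows matched 6 of the 9 genes. Capitals mark matches to the GC box bound by Sp1 (GGGCGG, either strand).
Tgfa: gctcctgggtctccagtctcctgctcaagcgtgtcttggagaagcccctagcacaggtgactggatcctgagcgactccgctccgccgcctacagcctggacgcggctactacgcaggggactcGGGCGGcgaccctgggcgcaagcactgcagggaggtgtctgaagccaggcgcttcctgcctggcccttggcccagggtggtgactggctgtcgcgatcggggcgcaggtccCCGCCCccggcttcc
Egfr: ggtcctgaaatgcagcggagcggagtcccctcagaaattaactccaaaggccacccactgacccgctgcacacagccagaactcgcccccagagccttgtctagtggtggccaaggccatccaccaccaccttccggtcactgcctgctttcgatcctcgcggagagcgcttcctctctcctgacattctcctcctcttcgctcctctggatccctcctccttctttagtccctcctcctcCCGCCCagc
Tgfa held 2 GC boxes, 126 bases before the start on the plus strand and 15 bases before it on the minus strand, and 69.2% of the window was G or C. Egfr held 1 GC box, 9 bases before the start on the minus strand, in a window with 60.8% G or C. Of 32851 mouse promoter windows of this length, 32.7% held a GC box on either strand. Matches to the GATA motif (AGATAA as well as AGATAG, and TGATAA as well as TGATAG), the steroidogenic factor 1 core (AAGGTCA), the TATA box (TATAAA), the cAMP response element (TGACGTCA) and AP-1 (TGANTCA), searched on both strands, numbered 0 in both windows. The share of all windows with a match was 26.5% for GATA, 4.08% for the steroidogenic factor 1 core, 12.4% for TATA, 1.55% for the cAMP response element and 6.75% for AP-1.

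Ereg, whose product binds Egfr and Erbb4, had the widest gap of the family between genotypes. Its probe set 1419431_at read 6.37, 6.14 and 6.70 in KO XY gonads, against 10.63, 11.03 and 10.86 in WT XY gonads (log2 signal). It read 7.02, 6.63 and 7.75 in KO XX gonads, against 10.94, 11.13 and 10.90 in WT XX gonads. All 6 KO arrays lay below all 6 WT arrays in both sexes. The mean was 6.40 ± 0.28 in KO XY and 10.84 ± 0.20 in WT XY (SD, n = 3 each), a log2 difference of -4.43 ± 0.23 (SE; 95% interval -4.92 to -3.95), or 21.6-fold lower in KO. In XX the mean was 7.13 ± 0.57 in KO and 10.99 ± 0.12 in WT, a difference of -3.85 ± 0.23 (95% interval -4.34 to -3.36), or 14.4-fold lower in KO. The XY gap exceeded the XX gap by 0.58 ± 0.32 on the log2 scale (XY minus XX -0.58, 95% interval -1.27 to 0.11), and this is given without a test. Because tissue was pooled, fewer cells of a type and less RNA per cell cannot be told apart, here and in every result that follows.

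**Figure D1:**
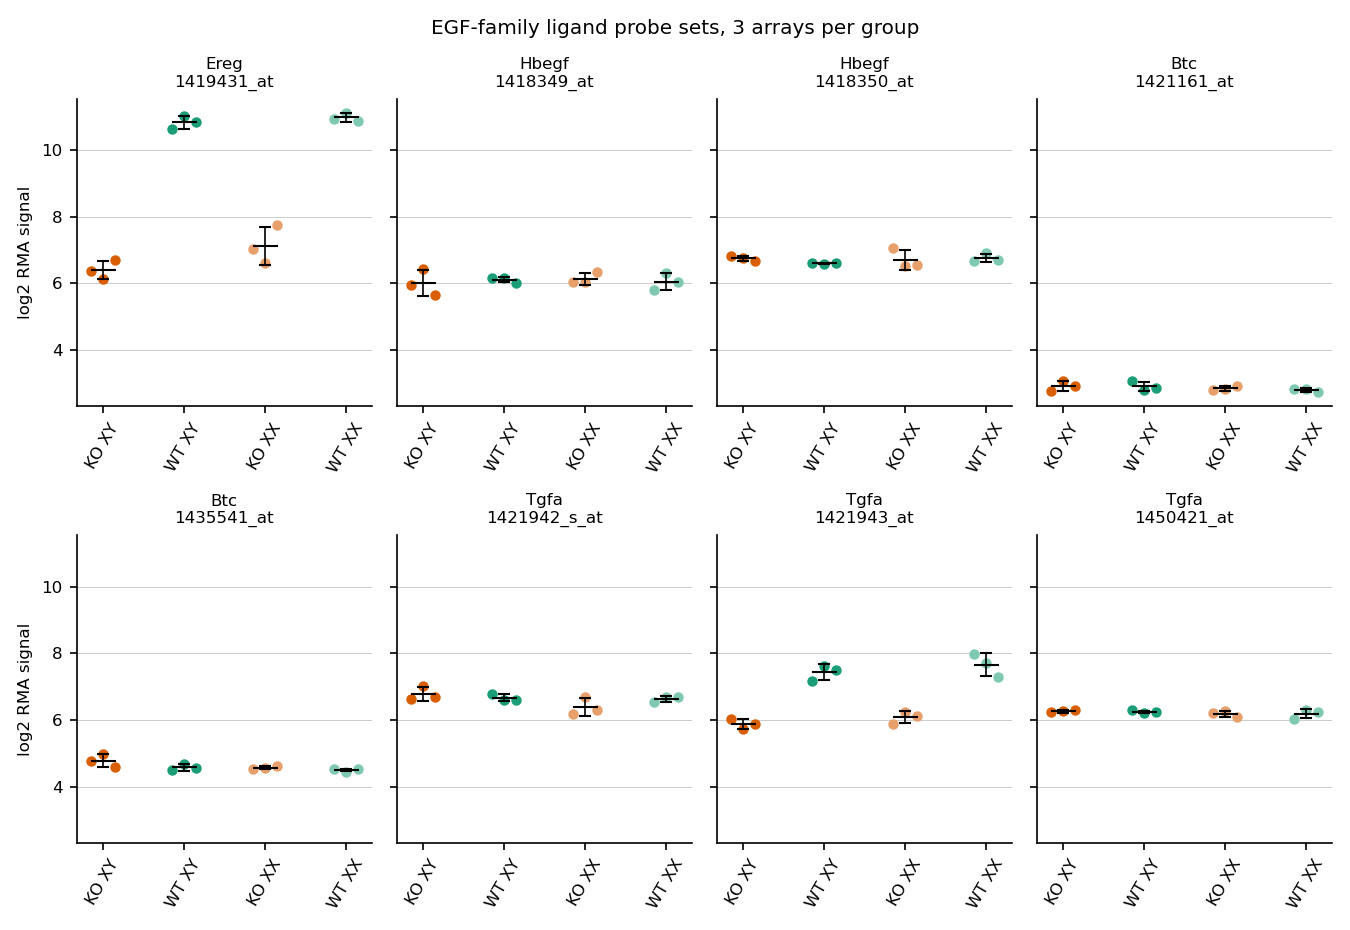
Log2 RMA signal of the 8 ligand probe sets on each array (points) in KO XY, WT XY, KO XX and WT XX gonads, with the group mean and SD (black bars, n = 3). Ereg lies between 6.14 and 7.75 in KO arrays and between 10.63 and 11.13 in WT arrays, and Tgfa 1421943_at is the other ligand probe set whose KO arrays all lie below the WT arrays.

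Among the 18 probe sets of the other members, 2 rose and 1 fell in KO XY gonads (limma, Benjamini-Hochberg adjusted over all 45037 probe sets, threshold 0.05). Of all probe sets 8.89% passed in XY, 4.24% upward and 4.65% downward. In KO XX gonads, likewise, 2 rose and 1 fell, where 9.35% of all probe sets passed, 5.77% upward and 3.58% downward. The median difference over these 18 was 0.02 in XY and -0.01 in XX (log2), beside 0.01 and -0.03 over all probe sets. The median member was thus close to the array as a whole, and the calls fell on Tgfa, Egfr and Erbb3.

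Tgfa, which encodes an Egfr ligand, fell in both sexes on 1 of its 3 probe sets. Probe set 1421943_at read 6.03, 5.73 and 5.89 in KO XY, against 7.17, 7.63 and 7.50 in WT XY (log2 signal). It read 5.88, 6.23 and 6.13 in KO XX, against 7.99, 7.70 and 7.30 in WT XX. The 6 KO arrays lay between 5.73 and 6.23, below the whole WT range of 7.17 to 7.99. These KO values were near those of Xist 1436936_s_at in XY arrays (5.81 to 6.09), so the size of the difference is uncertain. The log2 difference was -1.55 ± 0.17 in XY (SE; limma adjusted p = 5.34e-05), or 2.93-fold lower in KO. In XX it was -1.58 ± 0.17 (limma adjusted p = 5.33e-05), or 2.99-fold lower in KO. Both calls held in each alternative run, with adjusted p up to 0.00912 in XY and 0.00157 in XX. The other 2 Tgfa probe sets did not pass. Probe set 1421942_s_at gave 0.12 in XY (95% interval -0.19 to 0.43, limma adjusted p = 0.733) and -0.25 in XX (adjusted p = 0.343). Probe set 1450421_at gave 0.02 in XY (95% interval -0.20 to 0.24) and -0.01 in XX (95% interval -0.23 to 0.21). It read 6.03 to 6.31 over all arrays, also near the Xist 1436936_s_at values. A probe set at that level could miss a fall, so its intervals cannot show whether Tgfa transcript changed. Which transcripts the 3 probe sets read was not tested.

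Hbegf, a heparin-binding ligand of Egfr and Erbb4, did not pass in either sex. Probe set 1418349_at ranged from 5.66 to 6.44 in KO XY against 6.02 to 6.16 in WT XY, and differed by -0.09 in XY (limma adjusted p = 0.859) and 0.08 in XX (adjusted p = 0.834). Probe set 1418350_at read 6.67 to 6.83 in KO XY against 6.59 to 6.62 in WT XY. Its groups did not overlap, but the difference was only 0.15 on the log2 scale (limma adjusted p = 0.624), and in XX it was -0.06 (adjusted p = 0.852). Btc, a ligand of Egfr and Erbb4, lay within the range that Y-linked probe sets showed in XX arrays on 1421161_at (2.74 to 3.07 over all arrays) and near its top on 1435541_at (4.45 to 4.97). Btc 1435541_at differed by 0.20 in XY (limma adjusted p = 0.352) and 0.07 in XX (adjusted p = 0.779).

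Egfr, the receptor shared by these ligands, rose in KO gonads of both sexes on probe set 1435888_at. It read 7.71, 7.71 and 7.47 in KO XY, against 7.03, 6.63 and 6.66 in WT XY (log2 signal). The same probe set read 8.08, 7.51 and 7.24 in KO XX, against 6.35, 6.35 and 6.48 in WT XX. The groups did not overlap in either sex, and KO XX replicate 1 was the highest array. In XX it rose by 1.21 ± 0.18 (SE; limma adjusted p = 0.000643), or 2.32-fold, and the call held in every alternative run, with adjusted p up to 0.00806. In XY it rose by 0.86 ± 0.18 (limma adjusted p = 0.00774), or 1.81-fold. The XY call was lost once the difference between 3′ and 5′ control probe sets of Gapdh, a measure of RNA quality, entered as a covariate (difference 0.76, adjusted p = 0.236). In XY this measure separated KO from WT arrays, so RNA quality and genotype cannot be told apart there.

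A second Egfr probe set, 1424932_at, read 5.97, 5.48 and 5.40 in KO XX, against 4.99, 4.45 and 4.45 in WT XX. Here too the KO XX arrays all lay above the WT XX arrays, but 2 of the 3 WT XX arrays were within the range of Y-linked probe sets in XX arrays, so the size of the difference is uncertain. It rose by 0.99 ± 0.23 in XX (limma adjusted p = 0.0132), a call lost without KO XX replicate 1 (0.81, adjusted p = 0.0587). In XY it read 5.89, 5.30 and 5.48 in KO against 5.69, 4.88 and 5.29 in WT, with overlapping groups and a difference of 0.27 (limma adjusted p = 0.574). The remaining 5 Egfr probe sets did not pass in either sex, with log2 differences of -0.20 to -0.01 in XY and -0.11 to -0.01 in XX. Group means were 3.36 to 3.47 on 1457563_at, 5.06 to 5.17 on 1451530_at and 5.51 to 5.62 on 1432647_at. They were 5.76 to 6.07 on 1454313_at and 6.58 to 6.72 on 1460420_a_at. Only the means of 1460420_a_at exceeded 6.09, the highest Xist 1436936_s_at reading in XY arrays. The rest of these 5 may lack transcript, so their differences cannot show whether Egfr transcript changed. Egfr is therefore reported per probe set, since 2 of 7 rose in KO XX, 1 of 7 rose in KO XY and the others did not pass.

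**Figure D2:**
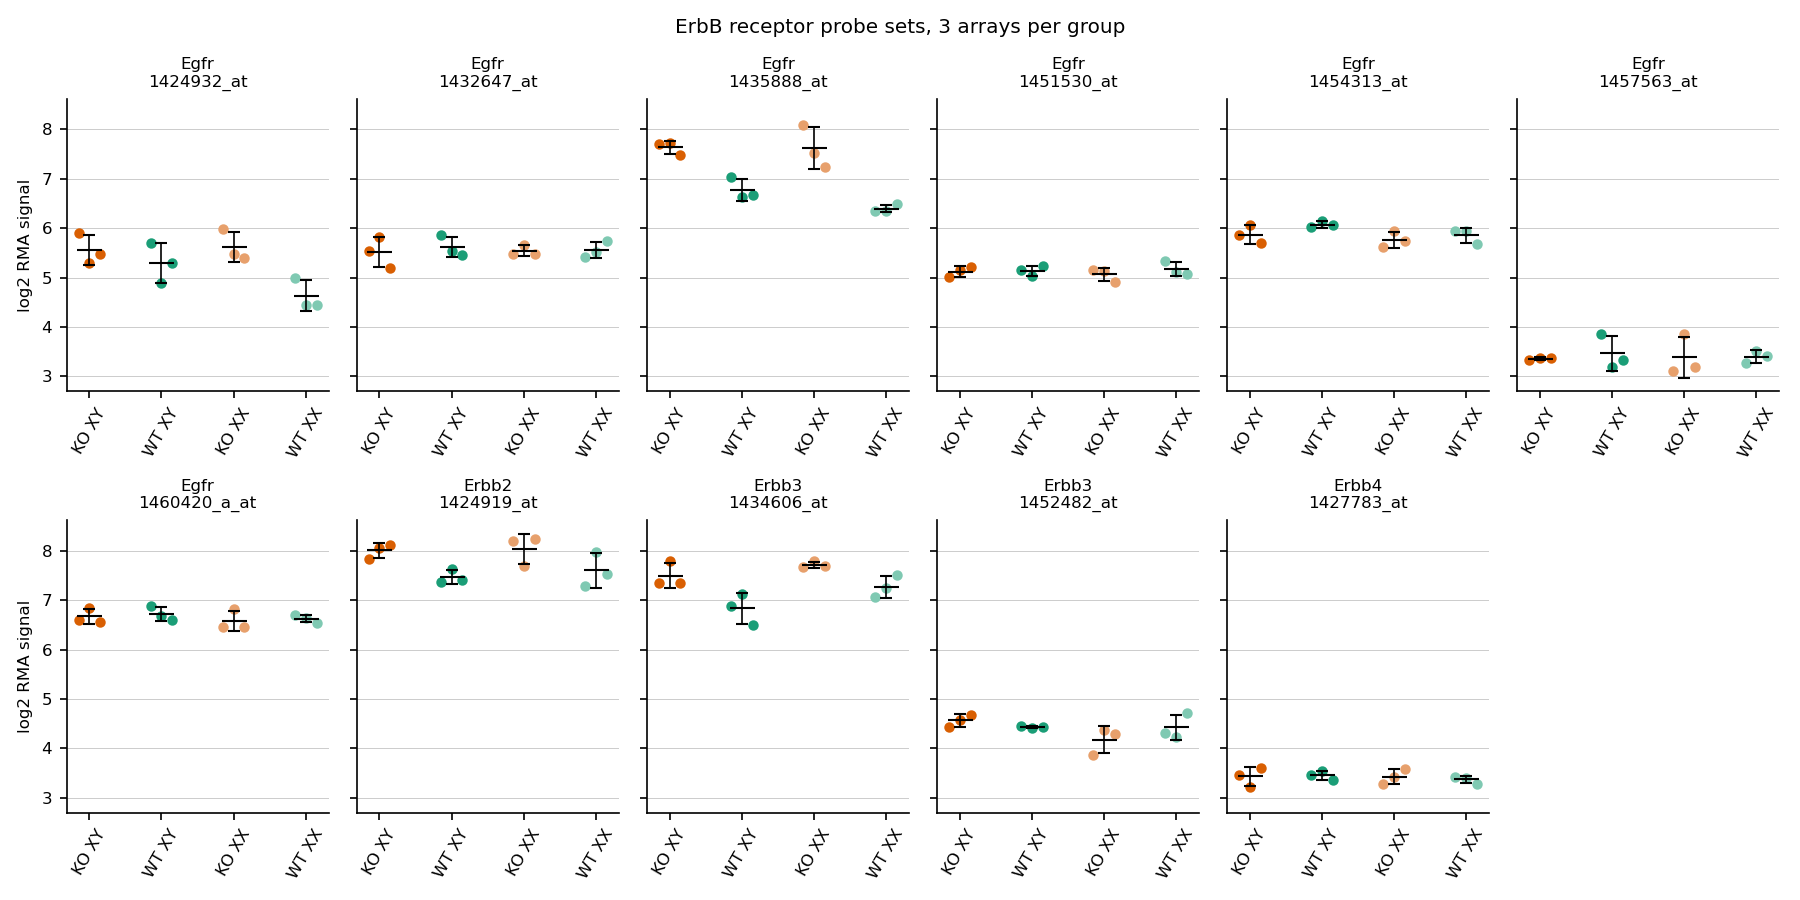
Log2 RMA signal of the 11 ErbB receptor probe sets on each array (points) in KO XY, WT XY, KO XX and WT XX gonads, with the group mean and SD (black bars, n = 3). Egfr 1435888_at and Erbb3 1434606_at lie higher in KO than in WT arrays of the same sex with no overlap, while Erbb4 stays between 3.23 and 3.61 on all 12 arrays.

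Erbb3, a receptor for neuregulins that passes signal to PI3K, rose in KO XY gonads on 1 of 2 probe sets. Probe set 1434606_at read 7.34, 7.79 and 7.35 in KO XY, against 6.88, 7.13 and 6.49 in WT XY (log2 signal). It read 7.67, 7.79 and 7.68 in KO XX, against 7.07, 7.24 and 7.50 in WT XX. KO arrays lay above WT arrays in both sexes, with the narrower gap in XX. The difference was 0.66 ± 0.17 in XY (SE; limma adjusted p = 0.0254) and 0.44 ± 0.17 in XX (adjusted p = 0.131). The XY call was lost without KO XY replicate 2 (0.51, adjusted p = 0.119), WT XY replicate 1 (0.69, adjusted p = 0.0674) or WT XY replicate 3 (0.49, adjusted p = 0.124). With the RNA-quality covariate it was 0.35 in XY (adjusted p = 0.695), while the XX difference then passed (0.54, adjusted p = 0.0483). Probe set 1452482_at, within the range of Y-linked probe sets in XX arrays on all 12 arrays, gave 0.13 in XY (limma adjusted p = 0.721) and -0.25 in XX (adjusted p = 0.350).

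Erbb2, the partner receptor without a known ligand of its own, had 1 probe set and did not pass in either sex. Probe set 1424919_at read 7.84, 8.06 and 8.11 in KO XY, against 7.38, 7.62 and 7.41 in WT XY (log2 signal). It read 8.19, 7.69 and 8.24 in KO XX, against 7.29, 7.98 and 7.52 in WT XX. The XY groups did not overlap and the XX groups did. The difference was 0.53 ± 0.18 in XY (SE; limma adjusted p = 0.0873) and 0.44 ± 0.18 in XX (adjusted p = 0.158). The XY difference passed when the fit held only XY arrays (adjusted p = 0.0139), without WT XX replicate 1 (0.0468) or without WT XX replicate 2 (0.0459). The XX difference passed without WT XX replicate 2 (0.63, adjusted p = 0.0394). Erbb4, a receptor for neuregulins and for several EGF-like ligands, read 3.23 to 3.61 on all arrays, within the range of Y-linked probe sets in XX arrays. Its difference was -0.02 in XY (limma adjusted p = 0.957), and 0.06 in XX (adjusted p = 0.836).

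Counted by overlap alone, 4 of the 18 probe sets had all KO XY arrays above all WT XY arrays and 1 had them below. Over all probe sets 15.6% lay above and 15.1% below in XY. In XX, 3 lay above and 1 below, where 12.1% and 11.6% of all probe sets did so. At an unadjusted p under 0.05 there were 4 probe sets in XY and 5 in XX, where 21.2% and 22.8% of all probe sets were under it.

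**Figure D3:**
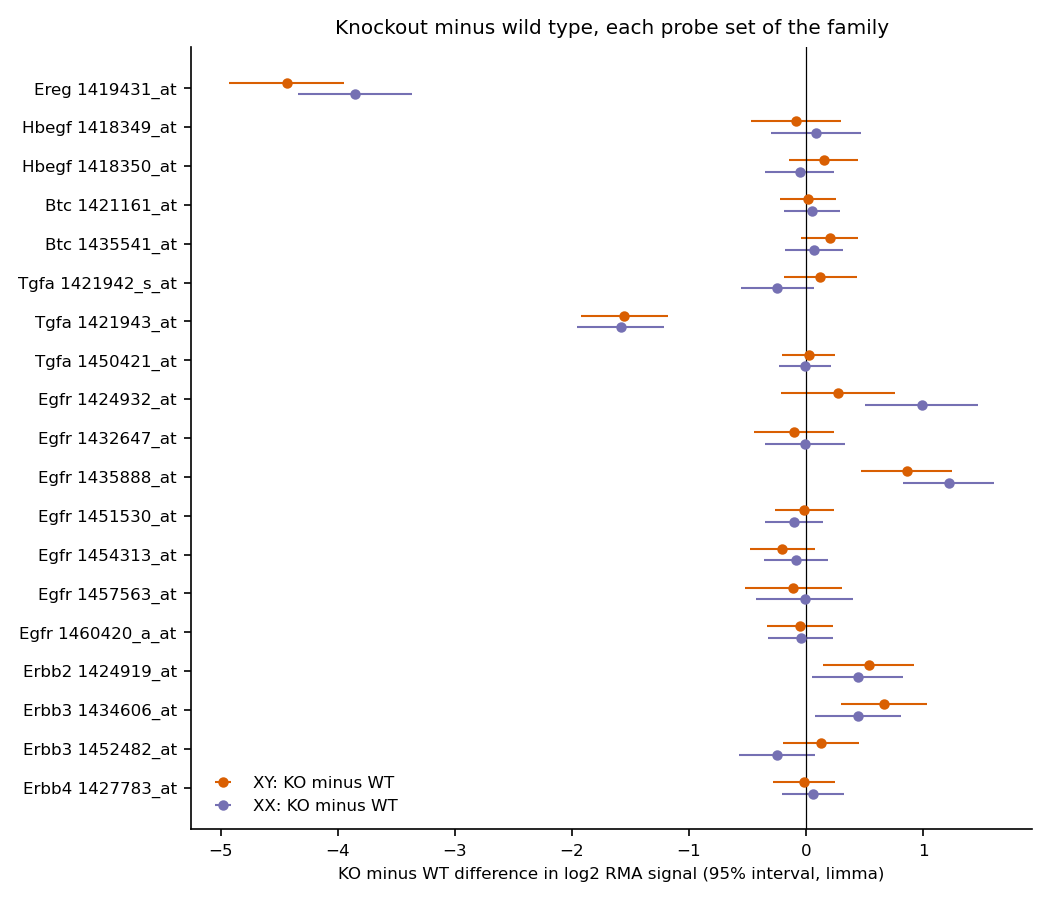
KO minus WT difference in log2 RMA signal for each of the 19 probe sets, in XY (orange) and XX (purple), with the 95% interval from limma. Ereg (-4.43 in XY, -3.85 in XX) and Tgfa 1421943_at (-1.55 and -1.58) lie left of 0, Egfr 1435888_at (0.86 and 1.21) lies right of it, and most other intervals span 0.

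The sexes were compared within each genotype. For XY against XX, 0 of 18 probe sets without Ereg passed in KO gonads and 0 of 19 in WT gonads (limma), where 0.0377% and 0.0555% of all probe sets passed. At an unadjusted p under 0.05 there were 2 in KO gonads and 2 in WT gonads, beside 10.6% and 8.74% of all probe sets, and the adjusted counts were also 0 with robust, trended variance moderation. Ereg did not pass in WT gonads (XY minus XX -0.15, limma adjusted p = 0.902). In KO gonads it averaged 6.40 in XY against 7.13 in XX, a difference of -0.73 ± 0.23 (SE; 95% interval -1.22 to -0.24) with overlapping groups, given without a test. The 2 in WT gonads were Egfr 1424932_at (XY minus XX 0.66, limma unadjusted p = 0.0117, adjusted p = 0.538) and Erbb3 1434606_at (-0.44, unadjusted p = 0.0228, adjusted p = 0.552). A difference of the KO effect between the sexes was tested for the 18 probe sets without Ereg. The limma interaction passed for 0 of 18 (0.00666% of all probe sets passed), and 1, Egfr 1424932_at, had an unadjusted p under 0.05, as did 6.44% of all probe sets (-0.72, unadjusted p = 0.0420, adjusted p = 0.771).

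Genes with a pattern like that of Ereg were ranked over the 12 arrays, with 1 probe set for each of 16313 genes. The 8 with the highest Pearson correlation were Sybu (0.996), Dock4 (0.994), Uhrf1bp1l (0.994), Inhbb (0.993), Smpdl3b (0.992), Hs6st1 (0.992), Kctd14 (0.992) and Rph3al (0.992). Sybu encodes syntabulin, an adaptor of axonal transport, Dock4 an activator of small GTPases, Inhbb the beta B subunit of inhibins and activins, and Hs6st1 a heparan sulfate sulfotransferase. These correlations are dominated by the gap between genotypes, since 394 genes reached 0.9 and 164 reached 0.95, and the arrays share their normalization. After each group's mean was removed, the correlation with Ereg was 0.901 for Smpdl3b, 0.797 for Inhbb, 0.789 for Dock4 and 0.745 for Sybu. It was 0.763 for Uhrf1bp1l, 0.753 for Kctd14, 0.700 for Hs6st1 and 0.602 for Rph3al. The 8 were picked by correlation on the same arrays, which raises these values too. They are a description and are not comparable with those of family members. The mean log2 signal of Inhbb was 6.34 ± 0.39 in KO XY against 9.98 ± 0.11 in WT XY, and 6.59 ± 0.54 in KO XX against 10.01 ± 0.09 in WT XX (SD, n = 3 each). KO XX replicate 3 had the highest value of the KO XX group for both Ereg (7.75) and Inhbb (7.21). Within the family, Tgfa 1421943_at correlated with Ereg at 0.965 over the 12 arrays, but at only 0.197 once group means were removed. For Egfr 1435888_at the values were -0.923 and -0.574.

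**Figure D4:**
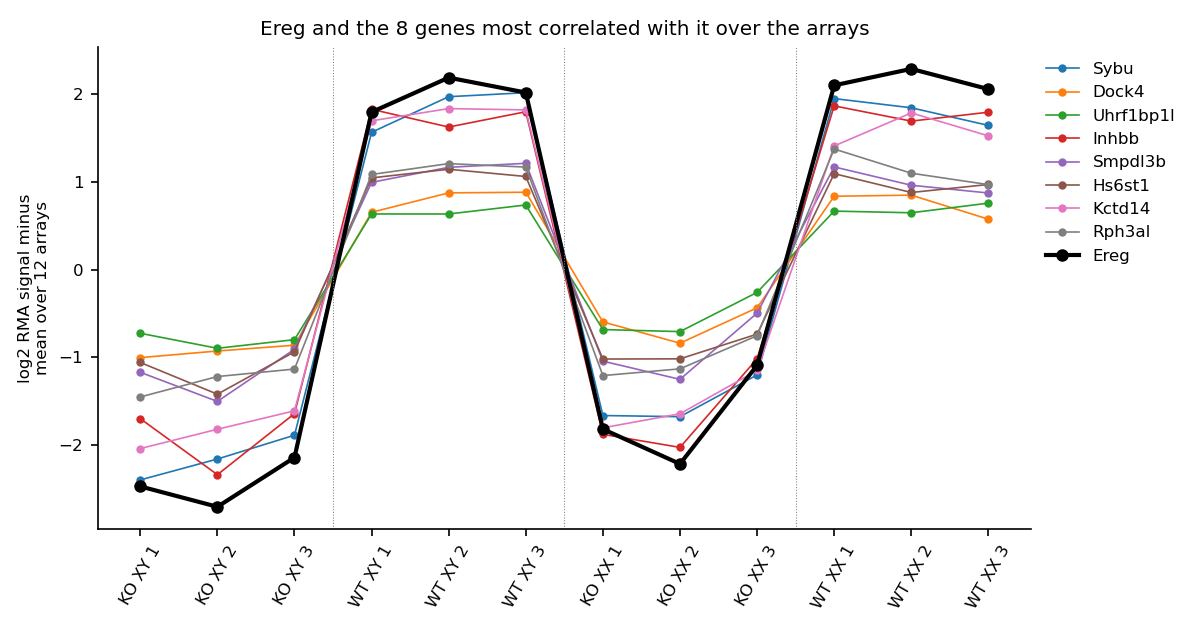
Log2 RMA signal minus the gene's mean over the 12 arrays, for Ereg (black) and the 8 genes most correlated with it, by array in KO XY, WT XY, KO XX and WT XX gonads. All 9 lines are below 0 in the 6 KO arrays and above 0 in the 6 WT arrays, and within KO XX most lie highest in replicate 3.

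Ereg lies on chromosome 5 beside other EGF-family genes, so the 5 protein-coding genes on either side in the RefSeq gene order were examined. Of these 10 genes, 8 had probe sets, 16 in all, of which 2 passed in XY and 4 in XX (limma). The counts lay beside 8.89% in XY and 9.35% in XX of all probe sets. The nearest EGF-family neighbours measured, Btc and Epgn (epigen), did not pass. Epgn differed by -0.06 in XY (limma adjusted p = 0.867) and -0.24 in XX (adjusted p = 0.277). The calls were all upward, opposite in sign to the Ereg difference. Parm1, a mucin-like membrane protein gene, rose on 1424214_at by 1.69 in XY (limma adjusted p = 0.000115) and 1.58 in XX (adjusted p = 0.000228). It also rose on 1428891_at by 1.02 in XY (limma adjusted p = 0.000897) and 1.50 in XX (adjusted p = 4.43e-05). Mthfd2l, an enzyme gene of mitochondrial folate metabolism, rose in XX on 2 of 4 probe sets, 1429600_at by 0.77 (limma adjusted p = 0.0153) and 1429601_x_at by 0.55 (adjusted p = 0.0356). The Mthfd2l 1429600_at call was lost without KO XX replicate 1 (0.59, adjusted p = 0.0645), KO XX replicate 3 (adjusted p = 0.0520) or WT XX replicate 2 (adjusted p = 0.0534). The 1429601_x_at call was lost without KO XX replicate 1 or 3, or WT XX replicate 2 or 3 (adjusted p 0.0925 to 0.135), with the RNA-quality covariate (0.48, adjusted p = 0.0628) and in a fit of XX arrays alone (adjusted p = 0.112). Rchy1, Cxcl2, Cxcl1 and Cxcl15 did not pass.

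Other genes of the pathway were read from 4 lists with 172 probe sets for 68 of 75 genes. In KO XY 8 rose and 13 fell, and in KO XX 12 rose and 6 fell (limma, adjusted over all probe sets). The median difference was -0.02 in XY and -0.01 in XX. The share called was 12.2% in XY and 10.5% in XX, beside 8.89% and 9.35% of all probe sets. The other ErbB ligands, Egf, Epgn and the neuregulin genes Nrg1, Nrg2, Nrg3 and Nrg4, had 10 probe sets, of which 0 passed in either sex. At an unadjusted p under 0.05 (limma) there were 0 in XY and 1 in XX, beside 21.2% and 22.8% of all probe sets. Their differences ran from -0.09 to 0.26 in XY and from -0.42 to 0.27 in XX.

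Of the 25 probe sets for ligand shedding and trafficking, 1 rose and 3 fell in KO XY, and 2 rose and 1 fell in KO XX. That was 16% in XY and 12% in XX, beside 8.89% and 9.35% of all probe sets. Adam8, a metalloprotease gene, averaged 6.51 ± 0.44 in KO XY against 8.03 ± 0.10 in WT XY, and 6.51 ± 0.23 in KO XX against 8.22 ± 0.40 in WT XX (log2 signal, SD, n = 3 each). KO and WT arrays did not overlap in either sex. Adam8 fell in both sexes, with a log2 difference of -1.52 ± 0.22 in XY (SE; limma adjusted p = 0.000448) and -1.71 ± 0.22 in XX (adjusted p = 0.000203). The XY call was lost with the RNA-quality covariate (-1.04, adjusted p = 0.0733). Adam19, another metalloprotease gene, rose on 1 of 2 probe sets by 0.72 in XX (limma adjusted p = 0.00272) and, in XY, 0.53 (adjusted p = 0.0200). In XY, Cd9, a tetraspanin that binds the Hbegf precursor, fell by 0.72 (limma adjusted p = 0.0232). Adam10, a sheddase of several EGF-family precursors, fell by 0.36 on 1 of 4 probe sets, 1428103_at (limma adjusted p = 0.0283), and the others gave -0.12 to 0.03. The XY calls of Adam19, Cd9 and Adam10 did not hold throughout. With the RNA-quality covariate the difference was 0.35 for Adam19 (adjusted p = 0.558), -0.64 for Cd9 (0.379) and -0.42 for Adam10 (0.216), so the calls of Cd9 and Adam10 were lost while their differences stayed of similar size. Adam19 was also lost without KO XY replicate 1 or 3, or WT XY replicate 1 or 3 (adjusted p 0.0615 to 0.093). Cd9 was lost without any 1 of the XY arrays but KO XY replicate 3 (0.058 to 0.0948), and Adam10 without KO XY replicate 2 or 3, or WT XY replicate 2 or 3 (0.0849 to 0.109). Adam12, which encodes a metalloprotease known to shed the Hbegf precursor, rose on 1 of 2 probe sets by 0.51 in XX (limma adjusted p = 0.0125), a call lost in a fit of XX arrays alone (adjusted p = 0.0724) and without WT XX replicate 2 (adjusted p = 0.0533).

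Of the 83 probe sets for receptor adaptors and the cascade, 5 rose and 4 fell in KO XY, and 6 rose and 2 fell in KO XX. That was 10.8% in XY and 9.64% in XX, near the 8.89% and 9.35% of all probe sets. Eps8, an Egfr kinase substrate that regulates actin, carried the largest differences of all 4 lists. Its probe set 1422824_s_at read 6.68, 6.74 and 6.76 in KO XY, against 9.46, 9.25 and 9.56 in WT XY (log2 signal). In XX it read 7.43, 6.91 and 7.41 in KO, against 9.26, 8.95 and 8.90 in WT. The KO arrays were far below the WT arrays in both sexes. It fell in both sexes, with a difference of -2.69 ± 0.15 in XY (SE; limma adjusted p = 1.21e-07) and -1.79 ± 0.15 in XX (adjusted p = 5.61e-06). The interaction did not pass (-0.90, limma adjusted p = 0.676). Eps8 1422823_at fell likewise, by -2.72 in XY (limma adjusted p = 1.89e-07) and -2.10 in XX (adjusted p = 2.43e-06), and its remaining probe set, 1425733_a_at, did not pass (-0.54 in XY, -0.62 in XX). Pik3r1, a regulatory subunit of PI3K, had probe sets of opposite sign in XY, with -0.63 on 1425514_at (limma adjusted p = 0.00896) and 0.95 on 1438682_at (adjusted p = 0.0172). The 1425514_at call was lost with the RNA-quality covariate, at a difference of -0.52 (adjusted p = 0.31). In XX, 1438682_at also rose, by 0.92, while 1425514_at gave -0.04 (limma adjusted p = 0.887). Alternatives were followed by probe set for 1425514_at only.

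Cblb, a ubiquitin ligase that acts on activated receptors, rose on 1 of 3 probe sets by 0.69 in XX (limma adjusted p = 0.00385) and, in XY, 0.49 (adjusted p = 0.0293). The XY call of Cblb was lost with the covariate, though the difference was then 0.56 (adjusted p = 0.226), and without any 1 of the XY arrays but KO XY replicate 2 (0.0691 to 0.128). Pik3ca, a catalytic subunit of PI3K, rose in both sexes on 1 of 6 probe sets, 1423144_at, by 0.45 in XY (limma adjusted p = 0.0106) and 0.40 in XX (adjusted p = 0.0193). The XY call was lost with the covariate, at a difference of 0.47 (adjusted p = 0.172), and without KO XY replicate 1 (0.0503). The XX call was lost without KO XX replicate 1 or 3 or WT XX replicate 2 (0.06 to 0.0626) and with XX arrays alone (0.0899). The other 5 Pik3ca probe sets gave -0.06 to 0.58 in XY and 0.21 to 0.53 in XX. Braf, a kinase upstream of ERK, rose in XX on 1 of 9 probe sets, 1445786_at, by 0.71 (limma adjusted p = 0.00438), while the others gave -0.26 to 0.26. Nras, a small GTPase upstream of ERK, rose in both sexes on 1 of 3 probe sets, 1422687_at, by 0.74 in XX (limma adjusted p = 0.0121) and 0.59 in XY (adjusted p = 0.0415). The others gave -0.17 to 0.37 in XX and -0.39 to 0.24 in XY. The XX call was lost without KO XX replicate 2 (0.67, adjusted p = 0.0515). The XY call was lost without any 1 of the XY arrays, without KO XX replicate 2 or 3 (adjusted p 0.0504 to 0.177) and with the covariate (0.20, adjusted p = 0.868).

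Of the 54 probe sets for feedback regulators and genes that respond to ERK, 2 rose and 6 fell in KO XY, and 4 rose and 3 fell in KO XX. That was 14.8% in XY and 13% in XX, beside 8.89% and 9.35% of all probe sets. Egr1, an immediate early transcription factor gene, read 7.59, 7.85 and 7.54 in KO XY, against 9.36, 8.98 and 8.91 in WT XY (log2 signal). It read 8.38, 7.69 and 7.44 in KO XX, against 8.51, 9.24 and 8.83 in WT XX. The groups did not overlap, though KO XX replicate 1 came close to WT XX replicate 1. Egr1 fell in both sexes, with a difference of -1.42 ± 0.23 in XY (SE; limma adjusted p = 0.00108) and -1.02 ± 0.23 in XX (adjusted p = 0.0113). The XX call was lost without KO XX replicate 3 (-0.82, adjusted p = 0.0561) and in a fit of XX arrays alone (adjusted p = 0.0519). Phlda1, a gene induced by growth factors, fell in both sexes (-1.34 in XY, limma adjusted p = 0.00131; -1.13 in XX, adjusted p = 0.00485), and its XY call was lost with the covariate (-1.13, adjusted p = 0.105). Dusp4, a phosphatase that inactivates ERK, read 7.01, 7.29 and 6.97 in KO XY, against 8.23, 8.27 and 8.10 in WT XY. It fell in XY (-1.11 ± 0.11, SE; limma adjusted p = 2.25e-05), gave -0.32 in XX (adjusted p = 0.101), and did not pass the interaction (-0.79, adjusted p = 0.632).

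Etv5, an ETS transcription factor gene, fell in XY by 0.66 on 1420998_at (limma adjusted p = 0.00217), while its other 2 probe sets did not pass. On 1420998_at the KO XY arrays (4.43 to 4.47) were within the range of Y-linked probe sets in XX arrays, so the size of that difference is uncertain. The feedback and ERK list as a whole did not fall, with a median difference of -0.02 in XY and 0.01 in XX. Its largest XY rise was 1.09, on Spred2 1436892_at, with a mean of 7.41 in KO against 6.32 in WT (7.49 against 7.26 in XX). The other Spred2 probe sets differed little in XY. Their KO and WT means were 9.46 and 9.53 on 1434403_at, 6.35 and 6.29 on 1423001_at, 6.35 and 6.30 on 1441415_at, and 6.86 and 6.77 on 1441802_at. Spry1, an inhibitor of receptor tyrosine kinase signalling, rose in XX by 0.74 (limma adjusted p = 0.00236) and differed by 0.37 in XY (adjusted p = 0.0988). Lrig3, a gene of the LRIG family of ErbB regulators, rose in XX by 0.89 on 1 of 3 probe sets (limma adjusted p = 0.0133). The Lrig3 call was lost without KO XX replicate 1 (adjusted p = 0.0566), KO XX replicate 3 (0.0552) or WT XX replicate 3 (0.0507), and in a fit of XX arrays alone (0.0547).

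**Figure D5:**
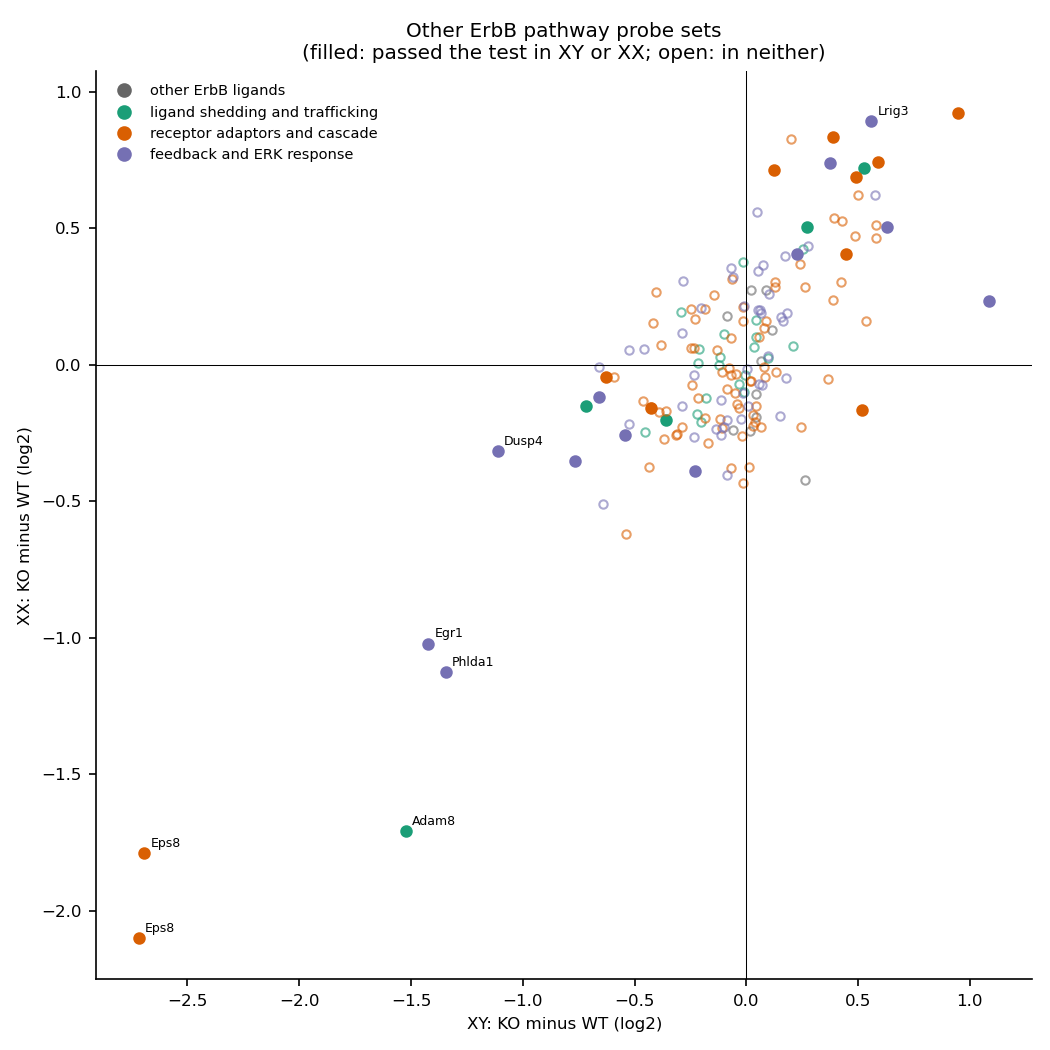
KO minus WT log2 difference in XY (horizontal) and XX (vertical) for the 172 probe sets of 4 ErbB pathway lists, coloured by list and filled where limma passed in XY or XX. Eps8 (about -2.7 in XY), Adam8, Egr1 and Phlda1 lie lowest on both axes, Dusp4 is low in XY, Lrig3 is high in XX, and most points cluster near 0.

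Markers of several cell types that the cut tissue could hold differed by genotype. The counts below stand beside 8.89% of all probe sets that passed in XY and 9.35% in XX (limma). At an unadjusted p under 0.05 the shares of all probe sets were 21.2% and 22.8%. Of 9 coelomic epithelium markers, 5 rose and 1 fell in each sex, and their summed linear signal was 9455 to 9566 in KO XY against 4803 to 5664 in WT XY, and 9293 to 11738 in KO XX against 4336 to 5145 in WT XX. Of 12 endothelial markers, 10 fell in XY and 7 in XX, with sums of 2089 to 2966 in KO XY against 4225 to 4700 in WT XY, and 2253 to 3397 in KO XX against 3404 to 4196 in WT XX. Of 6 gonadal somatic markers, 3 fell in XY (Lhx9, Nr5a1 and Gata4), and the same 3 fell and 1, Tcf21, rose in XX. Their sums were 10668 to 12207 in KO XY against 15561 to 16698 in WT XY, and 9794 to 13895 in KO XX against 13100 to 15356 in WT XX. Of 10 macrophage markers, 2 rose in each sex, and 5 in XY and 6 in XX had an unadjusted p under 0.05 (limma). Macrophage sums were 3036 to 3245 in KO XY against 1742 to 2254 in WT XY, and 2384 to 4512 in KO XX against 1790 to 2594 in WT XX. Of 10 germ cell markers, 4 rose in XX and 0 passed in XY (limma), where 2 had an unadjusted p under 0.05, near the share of all probe sets. In XX 5 of them were under it. Germ cell sums were 3974 to 5331 in KO XY against 2902 to 3688 in WT XY, and 4093 to 4752 in KO XX against 3086 to 4203 in WT XX. Of 6 mesonephros markers measured, Calb1 fell in each sex (-3.45 in XY, -2.09 in XX) and the others did not pass, with a median over the 6 of -0.04 in XY and -0.22 in XX. Of 5 markers of neural crest and Schwann precursors, 0 passed in either sex (limma). At an unadjusted p under 0.05 there were 1 in XY, near the share of all probe sets, and 0 in XX. The part of these markers in the values of Ereg, Tgfa, Egfr and Erbb3 was not tested.

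The RNA-quality measure was the Gapdh 3′ minus 5′ control difference. It averaged 4.91 ± 0.12 in KO XY against 4.13 ± 0.38 in WT XY, and 4.05 ± 0.22 in KO XX against 4.31 ± 0.45 in WT XX (log2, SD, n = 3 each). The exact two-sided permutation p was 0.1 in XY, the smallest that 3 arrays against 3 allow, and 0.4 in XX. With this difference as a covariate, 1 of the 18 family probe sets passed in XY, Tgfa 1421943_at, and Ereg stayed within -4.47 to -4.42 in XY over all alternatives that keep every array.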

How the data were processed

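The deposited values are log2 signals that the authors made with RMA, per the submitters' processing notes, which name Affymetrix Expression Console, RMA and affy (versions not given in the sources used here). RMA corrects background, equalises the arrays' distributions and summarises each probe set. They were used as given. Of 45101 probe sets, 64 controls were left out and 45037 tested. Of these, 34945 carried 1 gene, 932 several and 9160 none, and 34741 matched a current RefSeq symbol. A fit of 4 group means on all 12 arrays (8 residual degrees of freedom) used limma 3.58.1 in R 4.3.3 with Benjamini-Hochberg adjustment over all probe sets, tested on simulated data. The members and lists were chosen with earlier results of these data known. All members were named, from each pathway list up to 4 called genes per contrast with the smallest p, and all other ErbB ligands. Genes like Ereg were ranked by Pearson correlation, leaving out predicted and Riken names. Array number limits the precision. The labels give no scan date or batch. Cbx2 signal did not check the KO label. Promoters are RefSeq sequences. Alternatives changed normalization, filter, variance moderation, covariate and arrays used.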

Additional observations from a re-analysis of the deposited data

How the results depend on the processing

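Over 136 named results and 2594 alternative values, 2523 stayed on their side of the threshold, 64 lost a call and 7 gained one. Most of the 136 had not passed in the main fit, so they had no call to lose and make up much of the 2523. All 64 lost calls fell on the smaller part that had passed, so the 2523 says little about how firm those calls were. Direction was checked only for results that had passed, and 0 of them reversed. Some results that had not passed changed sign, such as Cd9 in XX (-0.30 to 0.06). Of the lost calls, 47 came with 1 array left out, 12 with the Gapdh covariate and 5 with a fit of the compared groups alone; fewer arrays enter the first and the last, and otherwise the cause was not tested. Ereg ran from -4.47 to -4.42 in XY and from -3.96 to -3.83 in XX over the other settings, and from -4.58 to -4.30 and from -4.16 to -3.60 with 1 array left out. The count of family probe sets called was 3 in each sex and ran from 2 to 4 with 1 array left out; with the Gapdh covariate it was 1 in XY. Sex contrasts and the interaction stayed at 0 in all settings run; the interaction needs all groups, so a fit of the compared groups alone was not run for it. The pathway count in XY was 21, and it was 13 with 1 probe set per gene, 6 with the Gapdh covariate and 38 with XY arrays alone. With 1 array left out it ran from 12 (WT XY replicate 1 or 3) to 33 (WT XX replicate 1). In XX it was 18, and 27 with the covariate, 10 with XX arrays alone, and 11 (without KO XX replicate 1) to 20 with 1 array left out. Over all probe sets, 4003 passed in XY and 4213 in XX. The XY count was 2421 with 1 probe set per gene, 1040 with the covariate and 6139 with XY arrays alone, and with 1 array left out 2541 (WT XY replicate 1) to 5637. The XX count was 2493 with 1 probe set per gene, 5191 with the covariate, 2514 with XX arrays alone and 3032 to 4129 with 1 array left out. Repeated quantile normalization gave 2234 up and 1854 down in XX, against 2600 up and 1613 down as reported.

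The main fit did not pair arrays by replicate number. Same-numbered KO and WT arrays deviated from their group means with correlations of -0.0444 to 0.0354 in XY and -0.178 to -0.0349 in XX. Same-numbered XY and XX arrays gave -0.109 to 0.224 in KO and 0.0524 to 0.184 in WT, and whether such arrays were handled together was not tested. With the replicate number as a block, 3 family probe sets passed in each sex, the pathway counts were 24 in XY and 16 in XX, and the Ereg differences stayed at -4.43 and -3.85. RMA gives no measure of signal over background, so low probe sets (such as Btc 1421161_at, Erbb4, Egfr 1457563_at and Erbb3 1452482_at) cannot be told from unexpressed genes.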
